A study of Mytilus galloprovincialis with 8 samples.

Results

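The mussel Mytilus galloprovincialis filters dinoflagellates from the water with its gill and digests them in the digestive gland, the organ where okadaic acid (OA) and related toxins are mostly retained. OA, which Prorocentrum lima produces, inhibits serine/threonine protein phosphatases, enzymes that remove phosphate groups from other proteins. The probes described here target transcripts of a normalized cDNA library made from exposed mussels, and their signal was lower in the digestive gland of exposed mussels than in that of control mussels while the ratio in gill was near 0 on the log2 scale.

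In all, 100 of the 19188 probes for that library (0.521%) belonged to the set, out of 51300 probes on the array. A probe was taken when its log2 ratio of exposed to control was below -1 in both digestive gland replicates and its mean log2 ratio in gill lay between -0.5 and 0.5. The members were thus chosen on the same ratios that are given for them below, and these ratios are a description without a test. Contigs whose names begin with cDNA_MGT were read as the library of exposed mussels from the codes of the study, and this assignment is an inference. No probe was paired with a gene name or a sequence in the sources used here, and none of the contig names occurs in the RefSeq gene table. Members are therefore named by probe and contig, their functions are not given, and the 2 tissues could not be checked against marker genes.

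Exposed mussels had been kept for 24 h with P. lima, at 200 cells/ml in the sample records, whereas the paper states that amount per litre. Control mussels received no P. lima, and both groups were adult wild mussels that had been acclimated and fed microalgae. RNA came from pools of 5 mussels, so the spread among single mussels was not measured. Each of the 8 Agilent 2-colour arrays held an exposed pool in one channel and a control pool of the same tissue in the other, and each array was repeated with the dyes exchanged. An array and its dye swap counted as 1 replicate, which gave 2 replicates for each tissue, so that an exact permutation test over so few samples could not reach 0.05. In bulk tissue, fewer cells of a type and less RNA per cell cannot be told apart.

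The share of spots well above background in both channels was 51.7% to 57.4% on the digestive gland arrays and 37.0% to 39.6% on the gill arrays, and saturation was marked on 0 spots. The arrays shared 1 slide on which each tissue had a row of its own, so slide row and tissue cannot be told apart. The sample record of the dye swap of digestive gland replicate 2 names the dye Cy6, which was read as Cy5. Without that array replicate 2 rested on the array with the exposed RNA in red alone, and 54 probes met the rule, all of them among the 100. With only the arrays that held exposed RNA in red, in both tissues, 52 probes met it, 51 of them members.

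In the digestive gland the log2 ratio of the members ran from -4.74 to -1.01 in replicate 1, with a median of -1.64, and from -4.71 to -1.0 in replicate 2, with a median of -1.46. The mean of both replicates had a median of -1.52, and for 22 members it was below -2 and for 7 below -3. Most members thus lay within 1 log2 unit of the limit, and a short tail reached far lower. Replicates 1 and 2 of a member differed by a median of 0.21 and by at most 0.84. The lower value was in replicate 1 for 58 members and in replicate 2 for 42. On all 4 digestive gland arrays the ratio was below 0 for 99 members. Among all 51300 probes, 525 (1.02%) were below -1 in both digestive gland replicates, and as the rule used that limit nothing is read from the comparison.

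**Figure D1:**
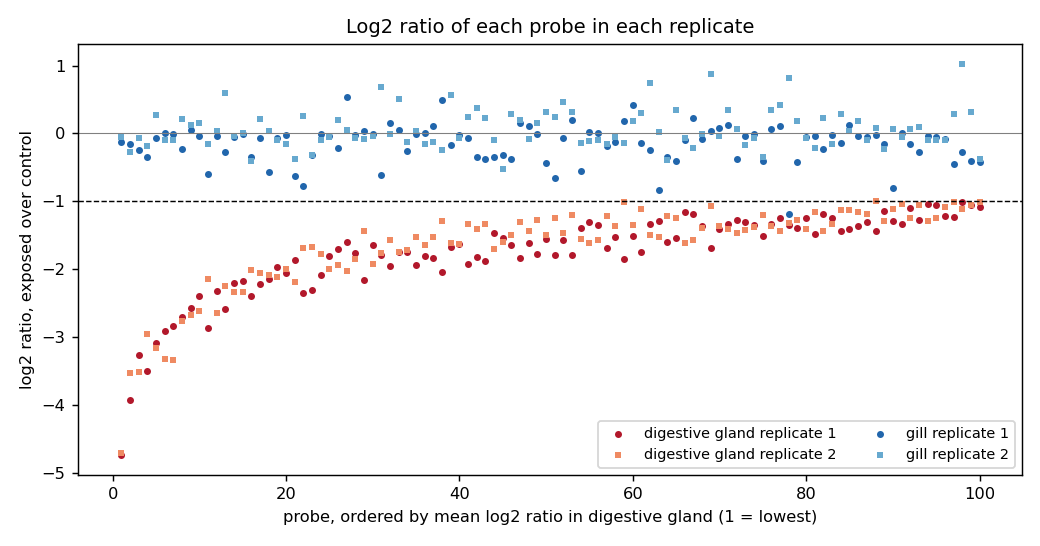
Log2 ratio of exposed to control (vertical axis) for each of the 100 members, ordered by the mean in digestive gland (horizontal axis), with 1 point for each replicate of digestive gland (red) and gill (blue) and a dashed line at -1. The digestive gland points descend to -4.74 on the left, while the gill points lie between -1.18 and 1.03 throughout.

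The size of the ratio depended on the dye, since the values of the rule are centred on the array median and keep a dye effect on each array. On arrays with the exposed RNA in red the median of the members was -1.11 in digestive gland, and on arrays with the exposed RNA in green it was -2.23. The mean over the dye swap balances both orientations. After loess normalization within each array, which removes a trend of the ratio with intensity, the corresponding medians were -1.51 and -1.55, and 91 members remained below -1 in both replicates.

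The lowest ratio belonged to probe CUST_26020_PI427859148 on contig cDNA_MGT.90_rep_c10941. Its background-subtracted intensity was 2950 and 2470 in the control pools of the digestive gland and 49.2 and 58.0 in the exposed pools, with log2 ratios of -4.74 and -4.71. Both exposed pools lay far below both control pools, and the difference was 26.1-fold on the normalized single-channel scale. That scale, used for every fold value of exposed against control here, carries an offset of 50 units. Where the signal was low, its fold values are smaller than the quotient of the printed intensities. In gill this probe gave 4.50 and 4.25 in the control pools and -2.75 and 6.50 in the exposed pools, and none of these was well above background on any array.

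Probe CUST_20021_PI427859148 (contig cDNA_MGT.90_c3111) fell from 6190 and 5440 in control digestive gland to 334 and 474 in exposed digestive gland, a 14.5-fold difference. Its signal in exposed digestive gland stayed well above background on all 4 arrays, whereas in gill it was not well above background in either RNA. Probe CUST_24578_PI427859148 (contig cDNA_MGT.90_rep_c8372) measured 13100 and 10100 in control digestive gland against 1020 and 1460 in exposed digestive gland. This difference was 10.3-fold, and its log2 ratios were -3.50 and -2.95. In gill control its intensity was 14 and 9.62, which was marked well above background on all 4 arrays.

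Other large falls ended at the background. Probe CUST_18887_PI427859148 (contig cDNA_MGT.90_c1933) measured 524 and 442 in control digestive gland and 8.0 and 11 in exposed digestive gland, where it was not well above background on any array, so that it was at least 7.46-fold lower. For CUST_25769_PI427859148 (contig cDNA_MGT.90_rep_c10549) the control values were 480 and 458 and the exposed values 9.75 and 5.00, at least 7.25-fold lower. CUST_30111_PI427859148 (contig cDNA_MGT.90_c16596) showed the same loss of signal, from 441 and 412 to 7.0 and -0.75, at least 7.03-fold lower. For these bounds each array entered with the probe's own normalized level or with the lowest level that was well above background on that array, whichever was higher. Probe CUST_32279_PI427859148 (contig cDNA_MGT.90_c19168), with 370 and 296 in control and 5.5 and 7.5 in exposed digestive gland, was at least 5.58-fold lower. For all the probes of this paragraph the bound equals, within rounding, the ratio of the probe's own normalized levels.

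The remaining members among the 10 largest falls kept some signal after exposure. Probe CUST_30124_PI427859148 (contig cDNA_MGT.90_rep_c16611) went from 692 and 585 to 15.2 and 13.0 and was well above background in exposed digestive gland on 1 of 4 arrays. CUST_20539_PI427859148 (contig cDNA_MGT.90_c3646) went from 364 and 350 to 12.2 and 19.0, a 5.38-fold difference on the scale with the offset. Its mean log2 ratio was -2.62 by the rule and -3.98 with an offset of 10. CUST_23548_PI427859148 (contig cDNA_MGT.90_rep_c6891) went from 424 and 382 to 25.5 and 27.0, a 5.07-fold difference. In each of these 10 probes both exposed pools of the digestive gland lay below both control pools.

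**Figure D2:**
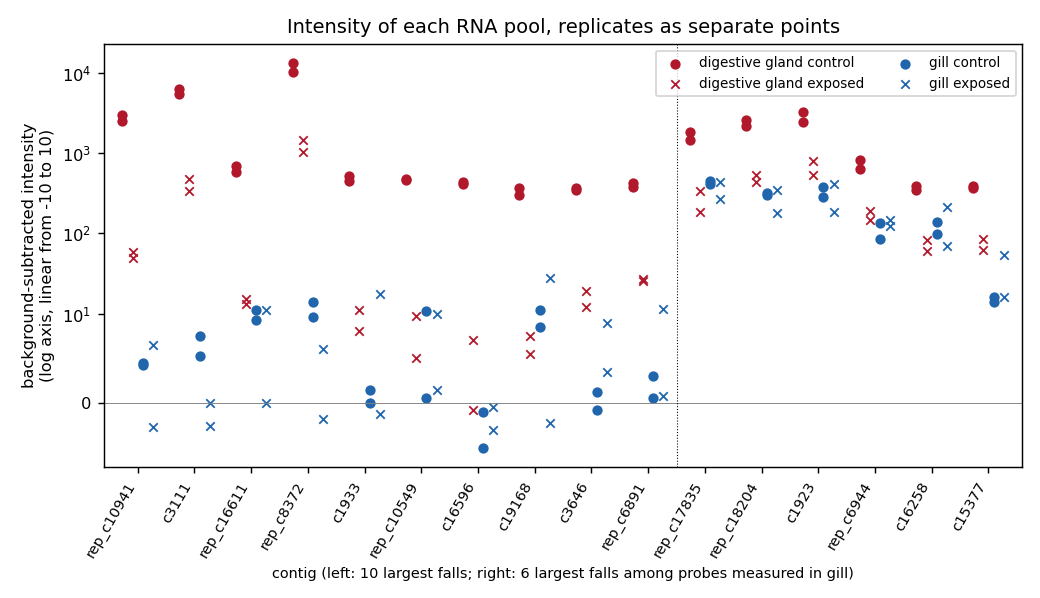
Background-subtracted intensity of each RNA pool (vertical axis, logarithmic but linear near 0) for the 10 largest falls on the left of the dotted line and the 6 largest falls among members measured in gill on the right, by contig. Circles are control pools and crosses exposed pools, with digestive gland in red and gill in blue and each replicate as 1 point. On the left the gill points lie at 27.5 or below, and on the right they lie between 13.8 and 454 while the digestive gland exposed pools lie below the control pools.

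The loss of signal was also seen in the scanner's mark for spots well above background. All 100 members carried the mark in control digestive gland on 4 of 4 arrays. In exposed digestive gland 66 kept it on 4 arrays, 8 on 1 to 3 arrays, and 26 on 0 arrays. Of the 9093 probes of the same library with the mark on all 4 arrays in control digestive gland, 98.1% kept it on 4 arrays in exposed digestive gland and 56 (0.616%) lost it on all, of which 26 were members. The rule used these intensities, so the excess is a description. The 26 members were at least 1.77-fold to at least 7.46-fold lower in exposed digestive gland (median bound 2.35). For 18 of them the probe's own level was the higher one on all 4 arrays, so that the bound equals the ratio of its normalized levels, and for 8 the array's lowest level entered on at least 1 array. The 66 members that kept the mark were 2.09-fold to 26.1-fold lower, with a median of 3.11-fold, on the single-channel scale with its offset of 50.

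On normalized single-channel levels averaged over each dye swap, pools of the same treatment were close to each other. Over the 66 members measured in both RNAs, control pools 1 and 2 of the digestive gland differed by a median of 0.07 on the log2 scale (highest 0.43), and exposed pools by 0.10 (highest 0.41). The same medians over all probes measured in both channels were 0.08 and 0.12. Single arrays were also compared on the values of the rule, which keep a dye effect on each array. Turned to exposed over control, they correlated over all probes at -0.298 to 0.972 in digestive gland and -0.33 to 0.71 in gill. Both exposed pools lay below both control pools in digestive gland for 100 of 100 members, against 30.4% of all probes, a count that the rule largely fixes. In the limma fit (2 residual degrees of freedom, Benjamini-Hochberg adjustment over all probes at 0.05), 98 members were lower in exposed digestive gland, against 8.70% of the probes tested, and nothing is read from the number since the same contrast chose them. The 2 members that were not called were CUST_25768_PI427859148 and CUST_35990_PI427859148.

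**Figure D3:**
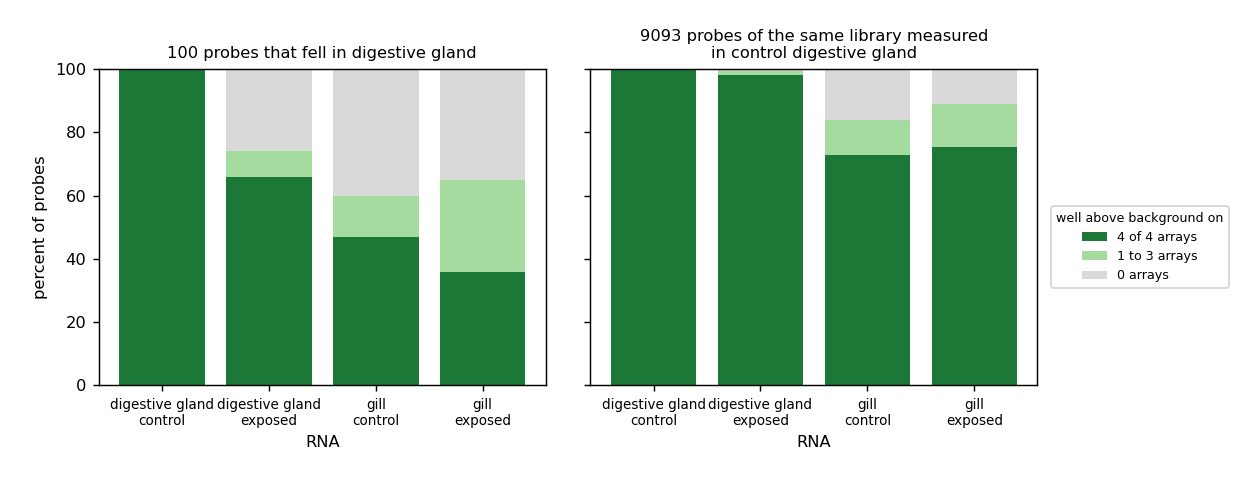
Percent of probes (vertical axis) that were well above background on 4 of 4 arrays, on 1 to 3 arrays or on 0 arrays in each RNA, for the 100 members on the left and for the 9093 probes of the same library measured in control digestive gland on the right. In exposed digestive gland 66.0% of the members and 98.1% of the library probes kept the mark on 4 arrays, and in gill control 47.0% and 73.0% carried it.

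A ratio near 0 in gill did not always mean that the transcript was measured there. In the gill control RNA 47 members were well above background on all 4 arrays, 13 on 1 to 3 arrays and 40 on none, whereas among the 9093 library probes measured in control digestive gland 73.0% were on 4 arrays and 16.1% on none. In both gill RNAs on all 4 arrays 35 members were measured, against 70.4% of those 9093 probes and 34.4% of the whole exposed library. For 32 members neither gill RNA was well above background on any array, and since 50 intensity units were added to each channel, their ratios lay near 0 by construction, between -0.21 and 0.08. Loss in exposed digestive gland and darkness in gill control occurred together in 15 members, while 38 members were on 4 arrays in both of these RNAs. The share of the library with either combination was not computed, so nothing is read from these joint counts.

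Over all 100 members the gill log2 ratio ran from -1.18 to 0.54 in replicate 1 (median -0.07) and from -0.52 to 1.03 in replicate 2 (median -0.01). The mean of both had a median of -0.04. The replicates had opposite signs in 50 members and differed by a median of 0.18 and by up to 2.00. At least 1 replicate lay beyond 0.5 in either direction for 18 members. Their mean met the limit because the other replicate lay nearer 0 or had the opposite sign. The widest case was CUST_35990_PI427859148 (contig cDNA_MGT.90_c23786), with -1.18 and 0.82 in gill and -1.35 and -1.32 in digestive gland.

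The largest falls among the 35 members measured in gill were smaller than the largest in the whole set. Probe CUST_31176_PI427859148 (contig cDNA_MGT.90_rep_c17835) went from 1830 and 1440 in control to 182 and 334 in exposed digestive gland, a 6.10-fold difference, and in gill from 454 and 413 to 268 and 436. Its gill log2 ratios were -0.59 and -0.15. Probe CUST_31494_PI427859148 (contig cDNA_MGT.90_rep_c18204) went from 2550 and 2170 to 438 and 528 in digestive gland (4.74-fold) and had 314 and 304 in gill control against 178 and 344 in gill exposed. In both probes these exposed gill intensities fell on either side of at least 1 control pool. After loess the gill log2 ratios were -0.66 and -0.75 for the former and -0.62 and -0.55 for the latter.

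Probe CUST_18877_PI427859148 (contig cDNA_MGT.90_c1923) had 3270 and 2400 in control and 526 and 795 in exposed digestive gland, a 4.46-fold difference, and in gill its log2 ratios were -0.78 and 0.26. For CUST_29813_PI427859148 (contig cDNA_MGT.90_c16258) the fall in digestive gland was 3.36-fold and the gill ratios were -0.61 and 0.69. Both had gill replicates of opposite sign by the rule. After loess the gill ratios were -0.83 and -0.34 for the former and -0.61 and 0.17 for the latter. Probe CUST_23593_PI427859148 (contig cDNA_MGT.90_rep_c6944) was 3.69-fold lower in digestive gland, with 0.54 and 0.05 in gill. Probe CUST_29064_PI427859148 (contig cDNA_MGT.90_c15377) was 3.30-fold lower, with 0.05 and 0.51 in gill. CUST_23593_PI427859148 and CUST_29064_PI427859148 had no gill ratio below 0 by the rule. After loess the former had 0.43 and -0.32 and the latter 0.02 and 0.23.

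The gill ratio of measured members depended on the normalization. With centring on the array median, the 35 members had a median gill mean of 0.02, but the median over all 17638 probes measured in both gill RNAs was 0.21, and 45.7% of the members against 19.8% of these probes lay below 0. After loess the members had a median of -0.22 and the measured probes 0, with 82.9% against 50.3% below 0, and in both replicates 54.3% against 36.3%. Centring each array on the probes measured on all 8 arrays, an alternative added after seeing the data, gave -0.23 for the members and -0.03 for all measured probes. Relative to other measured probes, the members thus sat about as far below under each of these 3 scalings. Of these scalings, only centring on the array median gave a median near 0. There the rule limited the gill mean to between -0.5 and 0.5 while the measured probes had a median of 0.21. The rule thus shaped this position, and nothing is read from it. After loess 7 of the 100 members had a gill mean below -0.5, and with centring on the measured probes 14 had, while 0 had one above 0.5 under either. The rule had already set that upper limit on the scale centred on the array median, so nothing is read from the 0.

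**Figure D4:**
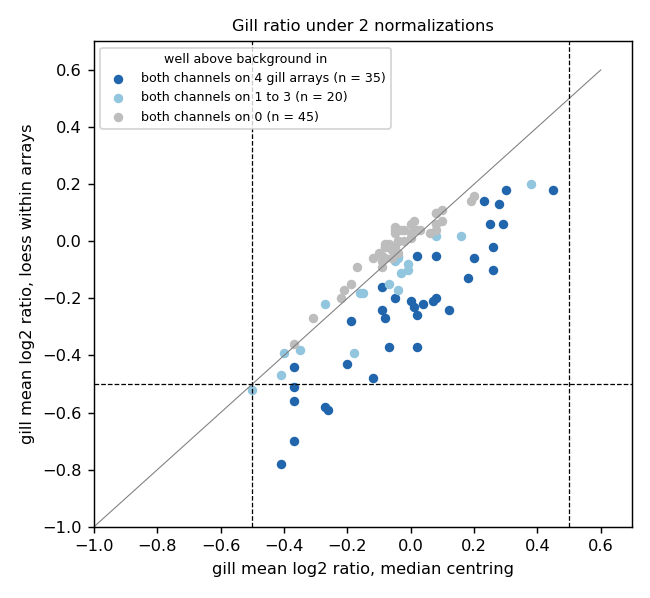
Mean gill log2 ratio of exposed to control for each of the 100 members with centring on the array median (horizontal axis) and after loess within arrays (vertical axis), coloured by the number of gill arrays on which both RNAs were well above background. The solid line marks equal values and the dashed lines mark -0.5 and 0.5. The 35 members measured on 4 gill arrays lie below the line of equal values and reach -0.78 after loess, while the 45 measured on 0 arrays lie close to it.

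The dye entered here as well. With centring on the array median, all 35 members measured in gill had a ratio above 0 where the exposed RNA was red (median 0.43), and 31 had one below 0 where it was green (median -0.42). After loess the medians were -0.20 and -0.19. On normalized single-channel levels both exposed gill pools lay below both control gill pools for 17 of the 35 members, against 24.8% of all probes measured in gill. For 0 members did they lie above, against 25.3%, and for 18 the pools overlapped. The gill limits of the rule shaped these counts of pools too, so nothing is read from them. The limma fit called 0 of the 100 members in gill (15 of 51210 probes in either direction, 0.0293%, and 0.0195% lower), with 24 members at an unadjusted p under 0.05, all of them lower, against 14.3% of all probes in either direction. Since the rule limited the gill mean nothing is read from this count, and a missed threshold with 2 replicates does not show that gill was unchanged. Probe CUST_34096_PI427859148 (contig cDNA_MGT.90_c21444), at the lower gill limit, had -0.31 and -0.52 by the rule and -0.42 and -1.14 after loess.

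The contrast of the change in digestive gland with the change in gill was called for 88 members in the same fit, against 4.69% of all probes. The rule asks for a fall in one tissue and a mean near 0 in the other, so this count is fixed in large part by the choice of members. Without digestive gland replicate 2 it was 43, and without gill replicate 2 it was 44.

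In control mussels the signal of the members relative to gill depended on how the tissues were scaled. The gill arrays were also dimmer, and whether this accounts for the dependence was not tested. The 75th percentile of the background-subtracted control intensity was 23 to 56 on the gill arrays and 106 to 427 on the digestive gland arrays. With Aquantile scaling, which gives all arrays one distribution of mean intensity, 35 of the 47 members measured in gill control were higher in control digestive gland, with a median log2 difference of 0.34 (range -1.64 to 5.75). With each channel scaled to its 75th percentile 29 were higher (median 0.28), and with each channel scaled to its median 45 were (median 1.33). The 40 members that were dark in gill control were at least 1.36-fold to at least 36.0-fold higher in control digestive gland on the Aquantile scale, with a median bound of 2.83, and for 18 of them the bound equals the ratio of the probe's normalized levels.

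For the 34 members measured in every pool of both tissues, the tissue difference could be followed across treatments. In control mussels the median of digestive gland minus gill was 0.42 on the log2 scale with Aquantile, and 27 members were higher in digestive gland, whereas in exposed mussels the median was -0.92 and 4 were higher. With the 75th percentile the medians were 0.84 and -0.74. With the median of each channel they were 1.89 and 0.31, so that the order of the tissues in exposed mussels turned with the scaling while the drop from control to exposed did not. The drop follows from the ratios that chose the members. On the Aquantile scale, limma called 80 members higher in digestive gland than in gill in control pools (19.9% of all probes). In exposed pools it called 16 (17.0% of all probes). A ratio below -1 needs signal in control digestive gland, so the choice of members shaped both counts and nothing is read from them.

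Probes of the same library that rose in digestive gland by the mirrored rule numbered 180 (0.938% of the library), of which 29 were well above background in gill control on 4 arrays and 131 on none. Probes of the control library that fell under the same rule numbered 263 (1.54% of that library), of which 106 and 111 were so marked, against 47 and 40 of the 100 members. In exposed digestive gland 66 of those 263 and 26 of the 100 had no mark on any array. These differences between sets were not tested, since the rule uses the intensities behind the marks.

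The members were 100 different contigs, so no 2 of them shared a target by name. The paper reports high redundancy among its assembled libraries, so different contig names need not mean different transcripts. A name with rep, by which the assembly marks a class of contigs, was carried by 26 members (26.0%) and by 29.1% of the library. Printed on 2 spots were 24 members, whose spots differed by a median of 0.05 on the log2 scale and by at most 0.25. Both spots were below -1 in both replicates for 21 of them, and the highest single-spot value was -0.98.

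The limits passed through a dense range of values. Just inside the digestive gland limit lay CUST_25888_PI427859148 (-1.43 and -1.0), CUST_32412_PI427859148 (-1.09 and -1.01) and CUST_25768_PI427859148 (-1.01 and -1.11). Just outside lay CUST_23715_PI427859148 (-1.07 and -0.98), CUST_17731_PI427859148 (-0.99 and -0.98) and CUST_20256_PI427859148 (-0.96 and -1.14). The median difference between replicates of a member (0.21) was larger than the distance between these groups. Of the 119 library probes below -1 in both digestive gland replicates, 9 had a gill mean below -0.5, the nearest being CUST_33303_PI427859148 at -0.57, and 10 had one above 0.5, the nearest being CUST_33009_PI427859148 at 0.66. The nearest members inside were CUST_26387_PI427859148, with -0.62 and -0.37 in gill, and CUST_17136_PI427859148, with 0.04 and 0.87.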

How the data were processed

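The authors deposited, for each of 8 arrays, output of Agilent Feature Extraction 10.7.3.1 that holds median spot intensity and local background in both channels, quality marks and a log10 ratio, which was not used. A further deposited table gives log2 ratios (red over green), which normexp with an offset of 10 and loess matched (r of 0.9996 or more). Upstream steps are otherwise not given in the sources used here. Background-subtracted intensities below 0 were set to 0, 50 was added, and log2 ratios of exposed to control were centred on the array median and averaged over spots, arrays and dye swap. The fit used limma 3.58.1 in R 4.3.3 (normexp with an offset of 50, loess, 51210 probes with a value on all arrays), and it was tested on simulated data. The design named the mean signal, and the median signal in the files was used in its place. Single-channel levels were normexp (offset of 50), loess and Aquantile values, and a probe was measured when at least 0.5 of its spots were well above background. Array number limits precision.

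The members and lists were chosen with earlier results of these data known. Named probes were the 10 lowest in digestive gland, the 6 lowest among those measured in gill, and those nearest the limits. CUST_35990_PI427859148 was chosen after its values were seen. Alternatives changed the offset, background correction, normalization, values, dye orientation, marks, scaling and replicates.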

Additional observations from a re-analysis of the deposited data

Results flagged for a closer look

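A limma contrast of the change in digestive gland with that in gill called 88 of the 100 members, with Benjamini-Hochberg adjustment over all probes. Of all probes tested, 4.69% were called lower by the same contrast. The choice of members fixes the count of 88 in large part, and it adds no independent support.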

How the results depend on the processing

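The 100 probes became 212 with an offset of 10 (76 of them members), 59 with an offset of 100, 231 with processed signals of the scanner software (54 members), 172 with the authors' table (81 members), 52 with the exposed RNA in red only, 411 in green only, 54 without the array named Cy6, and 91 to 168 with a replicate left out. Loess gave 114 (84 members) and centring on measured probes, added after seeing the data, 110 (82 members). The digestive gland median of -1.52 became -2.25 and -1.26 with offsets of 10 and 100, -2.44 with processed signals, -2.03 with the authors' table, -1.11 in red and -2.23 in green, and -1.64 to -1.46 with a replicate left out. The gill median of -0.04 became -0.18 with an offset of 10, -0.20 with processed signals, -0.15 with the authors' table, 0.04 in red and -0.11 in green, and -0.07 to -0.01 with a replicate left out. Over the 35 members measured in gill, the median of 0.02 became -0.33 with the authors' table and -0.23 to 0.20 with a replicate left out. Members lower in the fit numbered 78 to 100 under every alternative. The tissue contrast of 88 fell to 50 with processed signals and to 43 to 66 with a replicate left out. Members in the gill control RNA (47) were 49 to 50 with a replicate left out. With dark members at their bound, the control difference between tissues of 1.03 became 0.58 and 1.63 with the 75th percentile and the median of each channel, and 0.97 to 1.09 with a replicate left out. The 22 named members by the rule stayed below 0 in digestive gland in all 132 settings (-5.64 to -0.66). The replicate block changed no count (98 and 88). Over all probes, the difference between replicates 1 and 2 in digestive gland correlated at 0.162 with that in gill. This value cannot settle whether same-numbered pools of the 2 tissues are paired. The cause of the differences between settings was not tested.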
